A study of Drosophila melanogaster with 9 samples.

Results

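Flies expressing a hairpin against the retrotransposon 412 were set directly against flies expressing a hairpin against the retrotransposon roo. The comparison took the 6 hairpin libraries of the 9 in the series, 3 from the group labelled 412KD and 3 from the group labelled RooKD. The libraries were chosen by their labels, and the features compared were the 13759 genes and repeats counted in both of the authors' tables that name a gene or a repeat. All flies were Drosophila melanogaster females in the genetic background W1118 (BL5905), taken on adult day 20, and in all of them an Act5C driver expressed a short hairpin RNA in the whole body. The 412KD flies carried a hairpin against 412, the RooKD flies a hairpin against roo, and the control flies, labelled scr, a scrambled hairpin. The 3 scramble libraries entered the fit for the estimate of spread, and their values are given beside those of the hairpins. RNA was total RNA from pooled thoraces, sequenced in read pairs, so each library averages flight muscle, fat body, gut, nerve cord and other thoracic cells. In such bulk RNA, fewer cells of a type and less RNA per cell cannot be told apart. The labels do not say whether pools came from separate cultures or how many hairpin lines stood behind a group, so the spread behind each p-value is that of these pools and may be technical.

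Retrotransposons with long terminal repeats, such as 412 and roo, are transcribed from one repeat to the other, copied into DNA by their own reverse transcriptase and inserted elsewhere in the genome. In flies, small interfering RNAs in somatic cells and piRNAs in the germline hold their transcripts down. A short hairpin RNA is cut into a small RNA that guides Argonaute to matching transcripts. Both hairpins run through the same machinery from the same driver, so a direct comparison of the 2 hairpin groups asks which transcripts differ with the hairpin's target and fly line rather than with hairpin expression as such.

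The libraries held 20600497 to 26177587 reads in 412KD, 17590599 to 22361932 reads in RooKD and 19766132 to 23545648 reads in scramble. Normalized counts are reads scaled to the same effective library size for all 9 libraries. Germline transcripts differed between libraries of the same group. The summed normalized counts of 12 germline and ovary markers, among them oskar and the yolk receptor gene yl, were 3580, 1312 and 20790 in 412KD, against 12710, 1355 and 1803 in RooKD and 1233 to 1355 in scramble. The first principal component of all 9 libraries, with 39.98% of the variance, put 412KD replicate 3 at -61.2 and RooKD replicate 1 at -49.8, away from all other libraries. The marker sums of 412KD replicate 1 and RooKD replicate 3 were also above all of scramble. The marker gus alone had 1563 normalized counts in RooKD replicate 3 and 1048 to 1209 in scramble. In 412KD replicate 1 yl had 664, against 0 in RooKD replicates 2 and 3, whereas Cp36 had 0, against 1.12 and 1.30. Flight muscle markers were abundant everywhere, with summed normalized counts of 95390 to 113600 in 412KD, 82830 to 91130 in RooKD and 76220 to 99700 in scramble. Midgut markers summed to 123300 to 213500 in 412KD and 92550 to 123200 in RooKD, against 69690 to 95580 in scramble. Eye markers stayed at or under 37.9 in all libraries except RooKD replicate 2, which had 217.8. The fits without both libraries leave out 412KD replicate 3 and RooKD replicate 1, which had the most germline transcripts, and keep 412KD replicate 1. A library with raised germline transcripts therefore remains in 412KD in those fits.

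The targeted elements themselves were measured first. The summed 3 features of 412 had 0.524, 0.903 and 0.727 CPM in 412KD, against 0.454, 0.356 and 0.414 in RooKD, with 0.592, 0.743 and 0.485 in scramble. All 3 libraries of the 412 hairpin were above all 3 of the roo hairpin, on 51 reads against 24 reads. The ratio of 412KD over RooKD was 1.79, with a 95% interval of 1.09 to 3.05 that covers counting error only. The exact two-sided permutation test gave p = 0.1, the smallest that 3 against 3 allows. For the internal part of 412 alone the hairpin groups overlapped, with 0.472, 0.393 and 0.565 CPM in 412KD, against 0.454, 0.255 and 0.296 in RooKD, a ratio of 1.39 with an interval of 0.776 to 2.56 and an exact permutation p of 0.2. The 2 features of roo had 10.6, 12.1 and 8.64 CPM in 412KD, against 11.2, 9.16 and 14.1 in RooKD, with a mean of 9.67 ± 2.04 in scramble (SD, n = 3). The roo groups overlapped, with a ratio of 0.922, an interval of 0.829 to 1.03 and an exact permutation p of 0.6. On all libraries neither element had a lower mean in the flies whose hairpin was directed against it. The mean of 412 was 0.718 CPM in 412KD, against 0.408 in RooKD and 0.607 in scramble. The mean of roo was 11.5 CPM in RooKD, against 10.5 in 412KD and 9.67 in scramble. In both cases the targeted group overlapped scramble at this depth. The ratio of roo was 1.01 without 412KD replicate 3 and 1.02 without RooKD replicate 3.

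The transcriptomes of the 2 hairpin groups differed in few features by edgeR's quasi-likelihood test. Of 10599 features tested, 10 passed a Benjamini-Hochberg adjusted p of 0.05, which is 0.0943%, with 6 higher in 412KD (0.0566%) and 4 lower (0.0377%). At an unadjusted p under 0.05 there were 638. DESeq2 called 74 of 10537 features, or 0.702%, with 43 higher (0.408%) and 31 lower (0.294%), and its calls included all 10 of edgeR. The ranges of the 412KD and RooKD libraries were apart in 960 features, or 9.06%, with all 3 of 412KD above in 448 (4.23%) and below in 512 (4.83%). For 3 libraries against 3, such a separation has an exact two-sided permutation p of 0.1, so this share alone does not show a difference. Fold changes are log2 values of 412KD over RooKD, with their standard errors. The median log2 fold change over all features was 0.0033, and 50.7% of features lay above 0. The 10 calls of edgeR were Reepl1, CG11699, Kmn1, CG3117, slmo and CR18217, all higher in 412KD, and CG11893, CG12934, Cyp4p1 and lectin-24Db, all lower. Against scramble, the same fit called 6 features higher (0.0566%) and 8 lower (0.0755%) in 412KD, and 2 higher (0.0189%) and 7 lower (0.066%) in RooKD. With 412KD replicate 3 and RooKD replicate 1 both left out, edgeR called 70 of 10615 features, or 0.659%, 55 higher (0.518%) and 15 lower (0.141%), and 9 of the 10 were still called. The call lost was slmo. Of the same 10, 4 were called with the 6 hairpin libraries alone, 3 with the replicate number as a block, and 2, Reepl1 and CR18217, without 412KD replicate 2, RooKD replicate 2 or RooKD replicate 3.

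**Figure D1:**
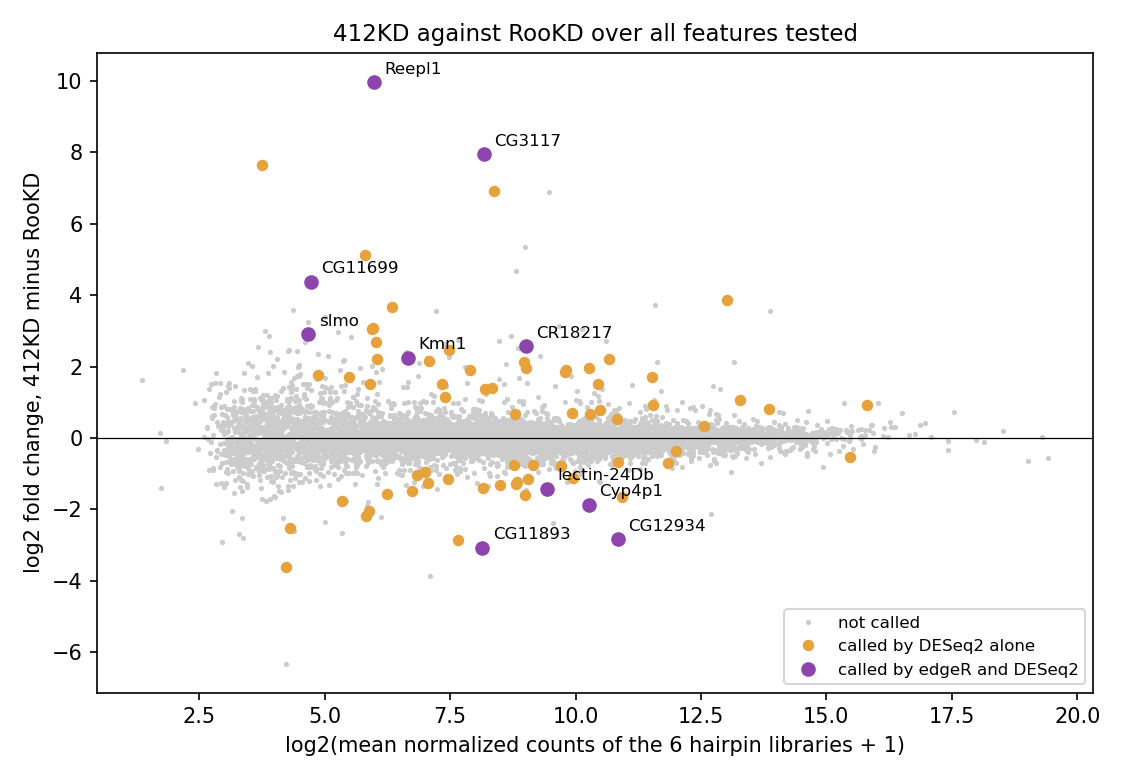
Log2 fold change of 412KD minus RooKD, fitted by edgeR, against the log2 of the mean normalized counts of the 6 hairpin libraries plus 1, with 1 point for each of the 10599 features tested. The 10 features called by both tools are labelled, those called by DESeq2 alone are orange, and the height of Reepl1, which had no read in RooKD, depends on the prior count of the fit.

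A short stretch of chromosome X held 3 of the 6 calls higher in 412KD. Reepl1 (FBgn0030313, chrX:11572707-11573640 on dm6), a relative of the REEP proteins that shape the endoplasmic reticulum, had 121, 137 and 131 reads in 412KD, against 0 in each of the 3 RooKD libraries, with 213, 149 and 168 reads in scramble. Every RooKD library was empty and every other library had over 100 reads. Against a floor of 3 reads per library, Reepl1 was at least 31.9-fold higher in 412KD than in RooKD (edgeR adjusted p = 0.000364), and at least 42.7-fold higher in scramble than in RooKD. This call was made in all 9 fits that left out a single library, with an edgeR adjusted p of 0.000429 to 0.00379.

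Kmn1 (FBgn0027259, chrX:11571383-11572442), which encodes a kinetochore protein, had 134.5, 167 and 194 normalized counts in 412KD, against 34.9, 25.7 and 44.1 in RooKD, with 158, 188 and 133.5 in scramble. RooKD lay below both other groups, which overlapped, and the fold change was 2.24 ± 0.26 (edgeR adjusted p = 0.0225). CG11699 (FBgn0030311, chrX:11570621-11571718), which fell under the count minimum for named genes and is named as a neighbour of Reepl1, had 49.4, 43.1 and 53.2 normalized counts in 412KD, against 1.99, 4.47 and 0 in RooKD, with 51.1, 65.2 and 46.4 in scramble. Its fold change was 4.37 ± 0.59 (edgeR adjusted p = 0.0479). In all 3 genes the 412KD level stood near that of scramble and the RooKD level stood below. In the same edgeR fit, RooKD minus scramble was -2.20 for Kmn1 (adjusted p = 0.0355) and -4.53 for CG11699 (adjusted p = 0.0362), whereas 412KD minus scramble was 0.05 and -0.16 (adjusted p = 0.968 and 0.936).

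The difference ended at both flanks of the trio. RpII215, the gene of the largest RNA polymerase II subunit, starts 295 bp from CG11699 and had a fold change of 0.34 ± 0.11 (edgeR adjusted p = 0.656). CG11696, 91 bp from Reepl1 on the other side, had 0.19 ± 0.19 (edgeR adjusted p = 0.997). No other gene tested within 20 kb was called. Kmn1 and CG11699 lie on opposite strands and share 336 bp, and the reference annotation places a 186 bp pogo insertion in both. Whether the counting used strand is not stated, so reads in the shared part cannot be told apart.

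**Figure D2:**
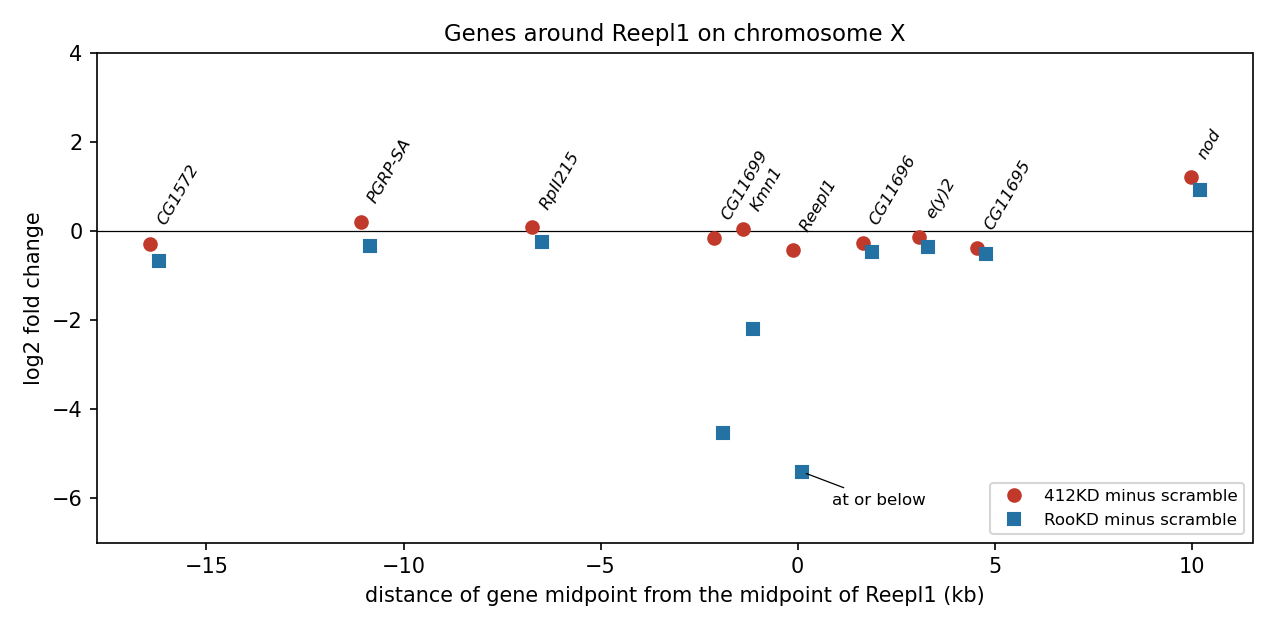
Log2 fold change of each hairpin group over scramble for the genes tested within 20 kb of Reepl1, plotted by the distance of the gene's midpoint from that of Reepl1 in kb (circles, 412KD minus scramble; squares, RooKD minus scramble). CG11699, Kmn1 and Reepl1 lie well below 0 in RooKD alone, and Reepl1, with no read in RooKD, is drawn at its bound of 42.7-fold.

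On the other arms, 3 features were higher in 412KD. CR18217 (FBgn0036646, chr3L:16600448-16602723) is annotated as a pseudogene. It had 829, 1118 and 694 normalized counts in 412KD, against 147.5, 138.5 and 160 in RooKD, with 148, 149 and 153 in scramble. Every 412KD library was far above every other library, and RooKD and scramble were interleaved. Its fold change was 2.57 ± 0.18 (edgeR adjusted p = 0.000667), and it was called in all 9 fits that left out a library (edgeR adjusted p from 0.000231 to 0.015). A pseudogene can share reads with its parent gene, so the source of these reads is uncertain.

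CG3117 (FBgn0031471, chr2L:2845926-2847212), a serine protease homolog, had 733, 757 and 221.5 normalized counts in 412KD, against 5.98, 0 and 0 in RooKD, with 6.06, 21.4 and 6.77 in scramble. All 412KD libraries were far above all the others, and replicate 3 was the lowest of them. The fitted fold change was 7.94 ± 1.01 (edgeR adjusted p = 0.0479), and it became 12.5 without the 2 libraries with the most germline transcripts, where no RooKD read remained, so that this size depends on the prior count. The gene slmo (FBgn0029161, chr2L:6046516-6048706) encodes a mitochondrial protein, and it lay under the count minimum for named genes and is named after its values had been seen. It had 59.8, 31.0 and 39.0 normalized counts in 412KD, against 3.99, 6.70 and 6.49 in RooKD, with 12.1, 14.2 and 15.5 in scramble. Its groups stood apart, with scramble between them, and the fold change was 2.90 ± 0.40 (edgeR adjusted p = 0.0479). It was not called in any fit that left out a library. It overlaps CG12393 on the opposite strand, which had 0.135 ± 0.245 (edgeR adjusted p = 0.997). Without the use of strand, reads in the shared part cannot be told apart.

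All 4 features that edgeR called lower in 412KD stood farther from scramble in 412KD than in RooKD. CG11893 (FBgn0039316, chr3R:25289889-25291366) belongs to a cluster of ecdysteroid kinase-like genes. It had 66.7, 76.7 and 36.3 normalized counts in 412KD, against 562, 446 and 500 in RooKD, with 516, 276 and 266 in scramble. The highest 412KD library was below every other library, and the fold change was -3.07 ± 0.34 (edgeR adjusted p = 0.0225). CG31436, 12771 bp away in the same cluster, had 331, 285 and 198 normalized counts in 412KD, against 581, 608 and 719 in RooKD, with 475, 475.5 and 444 in scramble. Its groups did not overlap, with a fold change of -1.23 ± 0.18 that DESeq2 called (adjusted p = 1.6e-06) and edgeR did not (adjusted p = 0.0655), while edgeR called it without the 2 libraries with the most germline transcripts, at -1.12 (adjusted p = 0.0177). The neighbours of CG11893 on either side were not called. CG13658 had 0.50 ± 0.20 (edgeR adjusted p = 0.788) and CG31098, 4 bp away on the opposite strand, had -0.18 ± 0.17 (edgeR adjusted p = 0.995).

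CG12934 (FBgn0033541, chr2R:10648888-10649830) had 692, 400 and 271 normalized counts in 412KD, against 2285, 4013 and 3361 in RooKD, with 1742, 2052 and 1576 in scramble. The 3 groups did not overlap, with scramble between the hairpins, and the fold change was -2.83 ± 0.35 (edgeR adjusted p = 0.0479). The gene lectin-24Db (FBgn0040102, chr2L:4188123-4189284), of a C-type lectin, had 346, 412.5 and 361 normalized counts in 412KD, against 1102, 883.5 and 1010.0 in RooKD, with 1146, 879 and 1391 in scramble. Here RooKD and scramble overlapped and 412KD stood alone, with a fold change of -1.42 ± 0.18 (edgeR adjusted p = 0.0365) and a difference of 412KD from scramble of -1.61 (edgeR adjusted p = 0.0331).

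Cyp4p1 (FBgn0015037, chr2R:9240041-9242139) encodes a cytochrome P450, one of the haem enzymes that oxidise foreign and internal compounds. It had 517, 677 and 390 normalized counts in 412KD, against 1770, 1568 and 2434 in RooKD, with 1592, 1275 and 999.5 in scramble. 412KD lay below both other groups, which overlapped, and the fold change was -1.87 ± 0.26 (edgeR adjusted p = 0.0479). Its neighbour Cyp4p2, 210 bp away on the same strand, went the other way, with 105, 115.4 and 111 normalized counts in 412KD, against 4.98, 31.3 and 15.6 in RooKD, with 163, 155 and 127 in scramble. Its fold change was 2.67 ± 0.48 and passed DESeq2 (adjusted p = 1.57e-06) but not edgeR (adjusted p = 0.154), while without both libraries edgeR called it at 2.19 (adjusted p = 0.0251). Cyp4p3, the next gene of the array at 181 bp, had 0.57 ± 0.29 (edgeR adjusted p = 0.896). Cyp4p1 and Cyp4p2 lie within hig on the opposite strand, and how reads shared between related genes were counted is not stated, so the values of these P450 genes are uncertain. The fold change of hig was 0.13 ± 0.14 (edgeR adjusted p = 0.997).

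**Figure D3:**
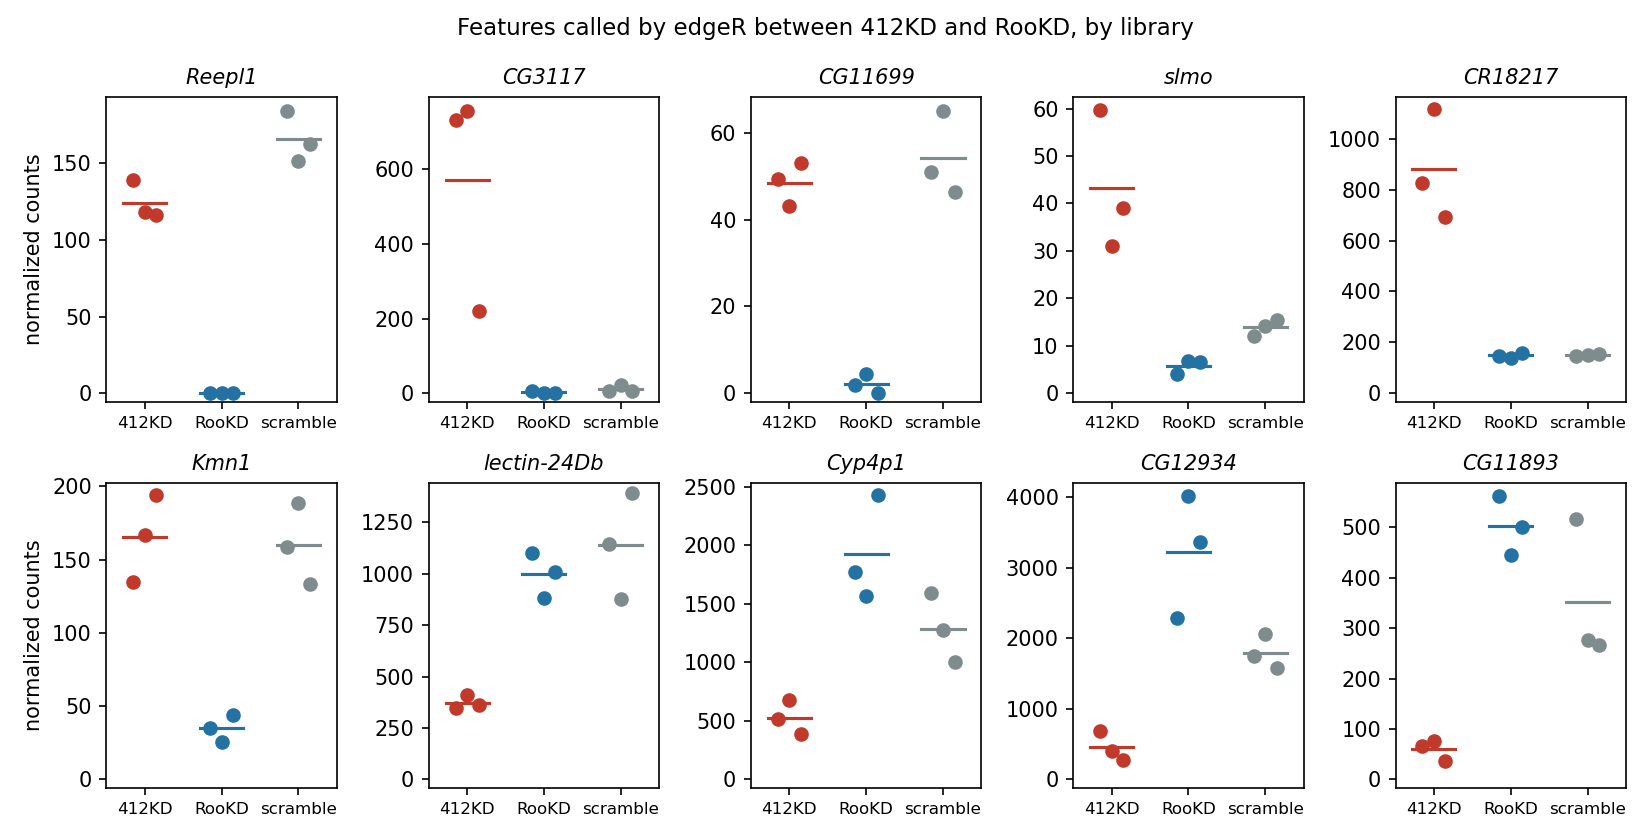
Normalized counts of the 10 features called by edgeR in each library, with 412KD on the left, RooKD in the middle and scramble on the right. Points are libraries, bars are means of 3, and each vertical axis starts at 0. Every 412KD library lies outside the range of the RooKD libraries in all 10 panels, which were chosen by a difference between these same libraries.

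Further genes were named from the DESeq2 calls that edgeR did not make on all libraries. Of all 74 DESeq2 calls, 26 were also called by edgeR without the 2 libraries with the most germline transcripts. Of the 43 features that DESeq2 called higher in 412KD, which include the 6 of edgeR, 412KD stood farther from scramble in 28 and RooKD in 15. All 3 libraries of 412KD lay above RooKD in 39 of the 43, beside 4.23% over all features. Such separation is not further support, as the calls were made on the same libraries. CG8664 had 1148, 716 and 92.1 normalized counts in 412KD, against 2.99, 6.70 and 6.49 in RooKD, with 0, 0 and 3.87 in scramble. It was high in 412KD alone, with replicate 3 the lowest, and the fold change was 6.91 ± 1.13 (DESeq2 adjusted p = 1.02e-05), with 7.10 without the 2 libraries with the most germline transcripts (edgeR adjusted p = 0.00148). The BMP type II receptor gene wit, which acts at the neuromuscular synapse, had 3346, 3615 and 1065 normalized counts in 412KD, against 529, 538 and 663 in RooKD, with 594, 494 and 734 in scramble. Replicate 3 of 412KD was again nearest to the other groups, and the fold change was 2.21 ± 0.41 (DESeq2 adjusted p = 2.64e-06), with 2.52 without both libraries (edgeR adjusted p = 0.00113).

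The tyrosine kinase gene Abl lies 13143 bp from CR18217 and followed the same order. It had 5444, 6210 and 1875 normalized counts in 412KD, against 1574, 1321 and 1223 in RooKD, with 1663, 1682 and 1490 in scramble, and its fold change was 1.72 ± 0.38 (DESeq2 adjusted p = 0.000311), with 2.18 without both libraries (edgeR adjusted p = 0.000455). The centrosome gene spd-2, 5434 bp from CR18217 on its other side, had 385, 394 and 904 normalized counts in 412KD, against 507, 27.9 and 48.0 in RooKD, with 81.4, 72.3 and 42.6 in scramble. Its groups overlapped through RooKD replicate 1, and the fold change of 1.52 ± 1.01 (edgeR adjusted p = 0.972) became 3.35 without the 2 libraries with the most germline transcripts (edgeR adjusted p = 0.00402). Genes between and beside them, such as CG32164, at -0.10 ± 0.18, and Mo25, at 0.19 ± 0.11, were not called by edgeR (adjusted p = 0.997 and 0.929).

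A pair of neighbouring long noncoding RNAs on 3R was near silent outside 412KD. The transcript lncRNA:CR45645 had 123, 143 and 54.9 normalized counts in 412KD, against 5.98, 0 and 2.60 in RooKD, with 3.46, 9.16 and 12.6 in scramble, and a fold change of 5.12 ± 0.80 (DESeq2 adjusted p = 2.77e-08), with 6.63 without both libraries (edgeR adjusted p = 0.00996). The transcript lncRNA:CR45644, under the count minimum, is named as a neighbour of lncRNA:CR45645 that DESeq2 called in the same direction (adjusted p = 0.00148). It had 17, 46 and 17 reads in 412KD, 0 in each RooKD library and 6, 0 and 3 in scramble. Against the floor it was at least 6.35-fold higher in 412KD than in RooKD. On X, asRNA:CR43480 had 375, 381.5 and 144 normalized counts in 412KD, against 34.9, 61.4 and 66.2 in RooKD, with 39.8, 51.9 and 51.3 in scramble. Its fold change was 2.47 ± 0.39 (DESeq2 adjusted p = 1.57e-06, edgeR adjusted p = 0.0865), with 2.55 without both libraries (edgeR adjusted p = 0.00118). It overlaps CG17162 on the opposite strand, and without the use of strand the reads of the pair cannot be told apart.

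CG18557, a serine protease homolog 192 bp from CG3117, had 216, 80.1 and 26.6 normalized counts in 412KD, against 16.9, 11.2 and 10.4 in RooKD, with 50.2, 31.6 and 17.4 in scramble. Its 412KD libraries lay above all of RooKD but overlapped scramble, with a fold change of 3.04 ± 0.74 (DESeq2 adjusted p = 0.00389). CG4650, another serine protease homolog, had 203, 90.4 and 39.0 normalized counts in 412KD, against 22.9, 11.2 and 3.90 in RooKD, with 31.2, 20.4 and 27.1 in scramble, and a fold change of 3.08 ± 0.70 (DESeq2 adjusted p = 0.00118), with 4.204 without both libraries (edgeR adjusted p = 0.0194). CG3104, 1777 bp from CG3117 on the other side, had a smaller difference of 0.66 ± 0.14 (DESeq2 adjusted p = 0.0273).

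Carotenoid uptake and cuticle were represented by single genes. The gene ninaD, of the scavenger receptor for carotenoids, had 131, 157 and 372 normalized counts in 412KD, against 79.7, 21.2 and 48.0 in RooKD, with 83.1, 109 and 189 in scramble. RooKD was below both other groups, which overlapped, with a fold change of 2.14 ± 0.57 (DESeq2 adjusted p = 0.0117). Cpr64Ad, a cuticle protein, had 40.2, 45.7 and 44.3 normalized counts in 412KD, against 11.96, 15.6 and 10.4 in RooKD, with 19.0, 37.7 and 24.2 in scramble, and a fold change of 1.77 ± 0.35 (DESeq2 adjusted p = 0.0172). It lies in CG43367 on the same strand, so its reads may include those of CG43367.

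Among the 39 genes of this set that are FlyBase genes and no repeats, 412KD replicate 3 was the lowest of the 3 libraries in 26, replicate 1 in 6 and replicate 2 in 7. Over all 10512 such genes tested, replicate 3 was the lowest in 4129. Germline markers were highest in that library, and their part in these values was not tested.

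Of the 31 features that DESeq2 called lower in 412KD, 412KD stood farther from scramble in 20 and RooKD in 11. All 31 were below RooKD in all 3 libraries, beside 4.83% over all features. The calls were made on these same libraries, so this separation is not further support for them. The methuselah-like receptor gene mthl14 had 288.5, 233 and 263 normalized counts in 412KD, against 606, 499 and 796 in RooKD, with 511, 551 and 408 in scramble. Its 412KD libraries were below all the others, with a fold change of -1.28 ± 0.19 (DESeq2 adjusted p = 1.99e-06). CG14223 had 58.6, 55.1 and 54.9 normalized counts in 412KD, against 113, 209 and 147 in RooKD, with 101, 99.8 and 102 in scramble. The scramble libraries lay between the hairpins without overlap, and the fold change was -1.47 ± 0.24 (DESeq2 adjusted p = 0.000117), with -1.66 without both libraries (edgeR adjusted p = 0.0231).

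The gene Lectin-galC1, of a galactose-binding lectin, lies in Pax on the opposite strand, so its reads may include those of Pax. It had 34.5, 39.6 and 39.0 normalized counts in 412KD, against 104, 91.6 and 139 in RooKD, with 34.6, 40.7 and 82.2 in scramble. Here RooKD was the group above scramble, with a fold change of -1.56 ± 0.35 (DESeq2 adjusted p = 0.012). CG30289 had the same order, with 26.4, 28.4 and 12.4 normalized counts in 412KD, against 93.7, 76.0 and 110.4 in RooKD, with 30.3, 39.7 and 26.1 in scramble, and a fold change of -2.05 ± 0.36 (DESeq2 adjusted p = 6.89e-05). The transcript lncRNA:CR43878 had 17.2, 20.7 and 22.1 normalized counts in 412KD, against 128.5, 69.2 and 77.9 in RooKD, with 280.5, 238 and 98.7 in scramble. Both hairpin groups were below most of scramble and 412KD was the lowest, with a fold change of -2.19 ± 0.41 (DESeq2 adjusted p = 0.00031). It lies in mub on the opposite strand, so its reads may include those of mub.

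The larval serum protein gene Lsp1beta, a store of amino acids made by the fat body, had 662, 868 and 1293 normalized counts in 412KD, against 1982, 3129 and 3711 in RooKD, with 5956, 6306 and 1722 in scramble. Its scramble libraries overlapped RooKD through replicate 3, and the fold change of -1.64 ± 0.49 passed DESeq2 (adjusted p = 0.0192) and not edgeR (adjusted p = 0.588). CG17560, CG16704 and CG9875 had fold changes of -1.31 ± 0.29, -1.40 ± 0.29 and -1.77 ± 0.40 (DESeq2 adjusted p = 0.0049, 0.00176 and 0.0194). CG44013 had 338, 184 and 236 normalized counts in 412KD, against 1344, 558.5 and 380 in RooKD, with 487, 714 and 358 in scramble. Its difference of -1.60 ± 0.49 (DESeq2 adjusted p = 0.033) was -0.87 without the 2 libraries with the most germline transcripts (edgeR adjusted p = 0.397).

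**Figure D4:**
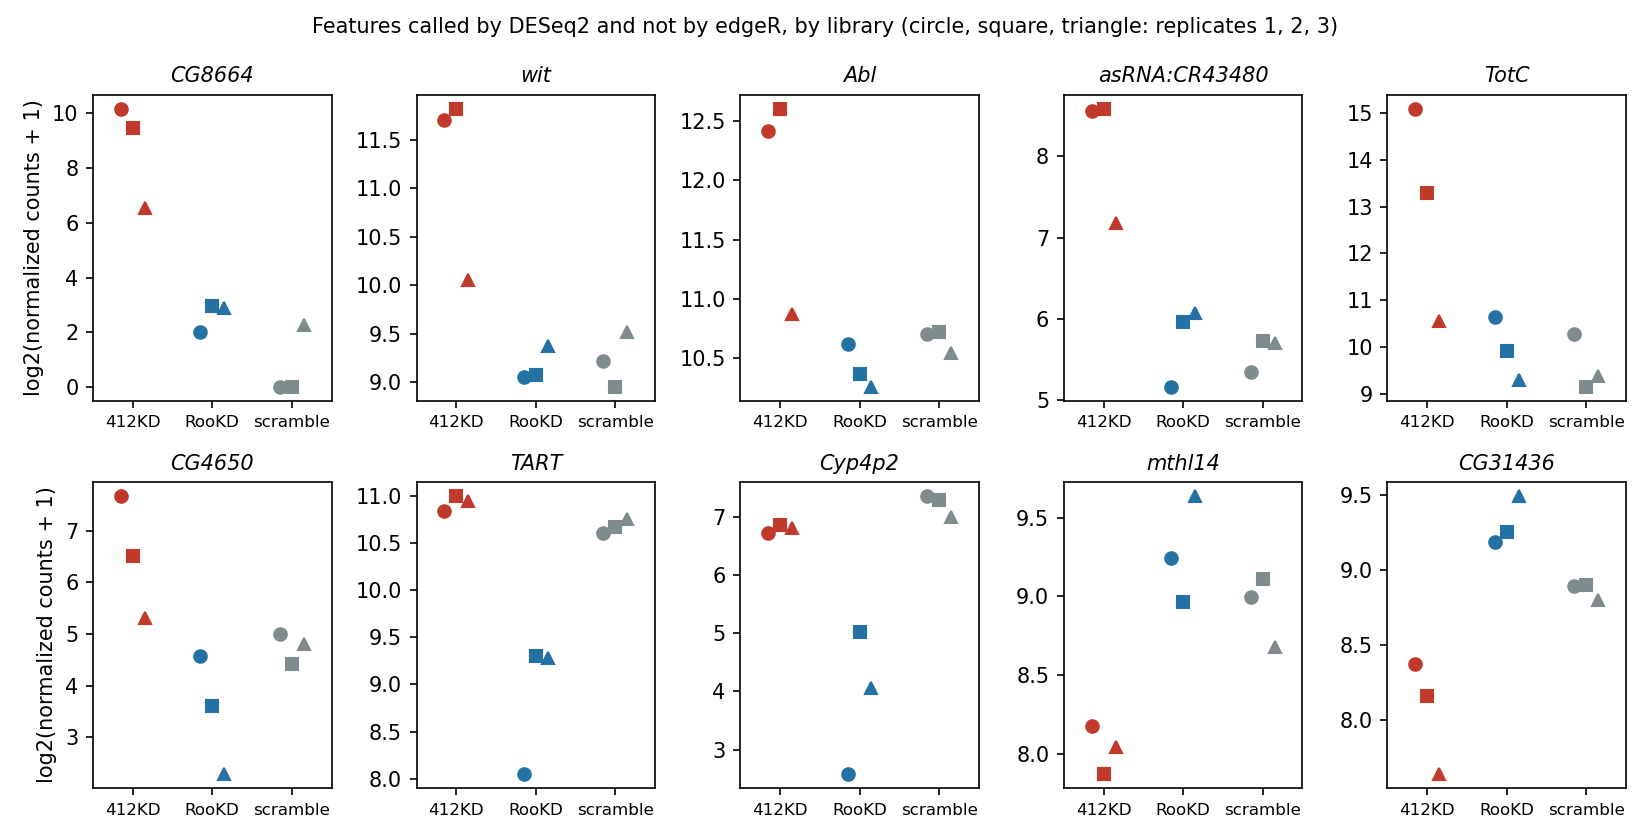
Log2 of normalized counts plus 1, by library, for 10 features that DESeq2 called and edgeR did not (circles, squares and triangles are replicates 1, 2 and 3). In CG8664, wit, Abl, asRNA:CR43480, TotC and CG4650 the triangle is the lowest of the 3 412KD libraries, while in TART and Cyp4p2 the RooKD libraries are the ones below scramble.

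The 85 repeat features tested, the targeted elements included, gave 5 DESeq2 calls, beside 0.702% over all features, and none by edgeR, beside 0.0943%. TART, a telomeric retrotransposon that extends chromosome ends in place of telomerase, had 1827, 2041 and 1966 normalized counts in 412KD, against 264, 631 and 622 in RooKD, with 1550.0, 1626 and 1724 in scramble. Its RooKD libraries were below all the others, and the fold change was 1.95 ± 0.28 (DESeq2 adjusted p = 2.66e-08, edgeR adjusted p = 0.0655), with 1.61 without both libraries (edgeR adjusted p = 0.00101). TART_B1 had 151, 239 and 322 normalized counts in 412KD, against 106, 81.5 and 61.0 in RooKD, with 492.5, 467 and 589 in scramble. Both hairpin groups were below scramble in TART_B1, and RooKD was the lower, with a fold change of 1.52 ± 0.29 (DESeq2 adjusted p = 0.000341).

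The other telomeric elements differed from TART in direction or size. HETA had a fold change of -0.74 ± 0.28 (edgeR adjusted p = 0.755) and TAHRE of -0.01 ± 0.32 (edgeR adjusted p = 0.998). Gypsy6_I, the internal part of a retrotransposon with long terminal repeats, had 98.8, 108.5 and 115.2 normalized counts in 412KD, against 25.9, 32.4 and 10.4 in RooKD, with 74.4, 34.6 and 60.9 in scramble. It was above RooKD and scramble alike in 412KD, with a fold change of 2.22 ± 0.42 (DESeq2 adjusted p = 0.000116). Gypsy_LTR, the terminal repeat of gypsy, went the other way, with 75.8, 54.3 and 16.8 normalized counts in 412KD, against 317, 561 and 184 in RooKD, with 290.0, 369 and 600 in scramble, and a fold change of -2.86 ± 0.60 (DESeq2 adjusted p = 1.89e-05). Over the 85 repeat features, 38 lay above 0 and 47 below, with a median of -0.11 on all libraries and -0.12 without both. Repeat copies share sequence, and how reads with several matches were counted is not stated.

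Gene lists for tissues and pathways, 39 in all, held 2 edgeR calls, Cyp4p1 and lectin-24Db, and 22 DESeq2 calls. Over all features, 0.0943% and 0.702% were called. The share among list members was not computed, so these totals do not show whether the lists were poor or rich in calls. Digestive proteases and lipases, the trypsins and Jonah proteases of the midgut among them, had 26 of 31 members above 0 and a median of 0.78, beside 0.0033 over all features, with 1.03 without both libraries. DESeq2 called 3 of the 31 higher and none lower, beside 0.408% higher and 0.294% lower over all features. Jon99Ci had 1650.0, 916 and 1587 normalized counts in 412KD, against 390, 375 and 391 in RooKD, with 176, 56.0 and 48.4 in scramble. Each group stood clear of the next, with a fold change of 1.84 ± 0.46 (DESeq2 adjusted p = 0.00232). The trypsin gene epsilonTry had 1.07 ± 0.23 and betaTry 0.92 ± 0.22 (DESeq2 adjusted p = 0.00166 and 0.0103), and edgeR called epsilonTry without both libraries at 1.31 (adjusted p = 0.0356). The median of the list relative to the scramble mean was 2.22, 1.02 and 4.30 in the 412KD libraries, against 3.34, 0.28 and 0.11 in RooKD, so RooKD replicate 1 was within the range of 412KD. The summed midgut markers, which include Jon99Ci and betaTry of the list, were also higher in all 3 412KD libraries than in any of RooKD, by 123300 against 123200 at the nearest. Most of that sum came from the trypsin genes alphaTry and betaTry. Of the markers, Jon25Bii, Jon99Ci and betaTry did not overlap between the hairpin groups, whereas alphaTry, Mur29B, Npc2f and mag did. The part of these markers in the values of the list was not tested. The list medians were highest in 412KD replicate 3, then RooKD replicate 1, then 412KD replicate 1, in the order of the summed germline markers. The fit without both libraries keeps 412KD replicate 1. Whether the values of the list go with the germline transcripts of the pools was not tested.

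Immune and stress genes were called singly. IM23, an immune-induced peptide gene, had 916, 1019 and 509 normalized counts in 412KD, against 201, 297 and 134 in RooKD, with 615, 778 and 299 in scramble. It was lower in RooKD than in both other groups, with a fold change of 1.95 ± 0.43 (DESeq2 adjusted p = 0.000341). It was the only DESeq2 call among 26 antimicrobial peptides, beside 0.702% called over all features. Of the 26, 15 lay above 0, with a median of 0.24 on all libraries and 0.72 without both. TotC, a Turandot protein secreted under stress, had 34910, 10060 and 1502 normalized counts in 412KD, against 1601, 960 and 627 in RooKD, with 1232, 563 and 666 in scramble. Its groups overlapped through 412KD replicate 3, and the fold change was 3.86 ± 1.07 (DESeq2 adjusted p = 0.012, edgeR adjusted p = 0.55). All 4 Turandot genes tested lay above 0, with a median of 3.63 on all libraries and 4.72 without both, and replicate 1 was the highest of the 412KD libraries in each. LysP, a lysozyme, had 0.82 ± 0.18 (DESeq2 adjusted p = 0.00565), and it lies in mwh on the opposite strand, so its reads may include those of mwh. The gene lectin-24A had 3.66 ± 1.29 (DESeq2 adjusted p = 0.0355) on 400, 35.3 and 10.6 normalized counts in 412KD, where replicate 1 alone was high. Of the 11 lectins tested, 3 lay above 0 and 8 below.

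Detoxification genes had calls in both directions. Of 80 cytochrome P450 genes, 31 lay above 0 and 49 below, with a median of -0.11 that was 0.04 without both libraries. All 412KD libraries lay below all of RooKD in 11 of the 80 and above in 2, beside 4.83% and 4.23% of all features. Cyp4p1 and Cyp4p2 were the only DESeq2 calls, beside 0.702% over all features. Of 33 glutathione S-transferases, 13 lay above 0 and 20 below, with a median of -0.10 that was 0.12 without both. In 3 of them all 412KD libraries lay below all of RooKD, and in none above. GstE1 had 738, 726 and 419 normalized counts in 412KD, against 1008, 1528 and 1545 in RooKD, with 2522, 2918 and 1999 in scramble. Both hairpin groups were below scramble and 412KD was the lower, with a fold change of -1.12 ± 0.26 (DESeq2 adjusted p = 0.00668), with -1.09 without both libraries (edgeR adjusted p = 0.0308). Ugt36Bc, a UDP-glycosyltransferase, had 0.78 ± 0.18 (DESeq2 adjusted p = 0.0105), the only DESeq2 call among 15 of its family, beside 0.702% over all features. On all libraries 8 of the 15 lay above 0. Without both libraries edgeR called 3 higher, beside 0.518% called higher over all features in that fit.

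Lipid and storage genes gave 1 DESeq2 call in each list, beside 0.702% called over all features. Of 24 lipid synthesis and droplet genes, 19 lay below 0, with a median of -0.20 on all libraries and -0.21 without both. FASN1, the fatty acid synthase of the fat body, had 39440, 38320 and 33290 normalized counts in 412KD, against 46240, 58700 and 55900 in RooKD, with 27360, 30020 and 27100 in scramble. The 3 groups did not overlap, with both hairpins above scramble and RooKD the highest, and the fold change was -0.53 ± 0.14 (DESeq2 adjusted p = 0.0173, edgeR adjusted p = 0.471). Of 11 yolk and larval serum proteins, 9 lay below 0, with a median of -0.55 that was -0.14 without both libraries, and Lsp1beta was the only DESeq2 call. The medians of the libraries relative to the scramble mean were 0.39, -0.34 and -1.63 in 412KD, against 0.26, 0.09 and -0.03 in RooKD, so 412KD replicate 3 was the lowest and replicate 1 the highest of the 6.

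The proteasome, the protease complex that degrades ubiquitin-tagged proteins, had no call but a shared sign. All 34 subunits tested lay above 0, with a median of 0.42, and without the 2 libraries with the most germline transcripts it was 0.71. Rpn1 was the only subunit whose hairpin groups did not overlap, beside 9.06% of all features, at 0.39 ± 0.13 (edgeR adjusted p = 0.623). Relative to the scramble mean, the medians of the libraries were 0.11, 0.21 and -0.50 in 412KD, against -0.16, -0.44 and -0.69 in RooKD, so 412KD replicate 3 lay within the range of RooKD. Genes of a complex move together, so the 34 signs are not independent of each other.

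The 13 proteins encoded in the mitochondrial genome also all lay above 0, with a median of 0.32, but the median was -0.09 without the 2 libraries with the most germline transcripts. The library medians were 0.92, 0.87 and 1.13 in 412KD, against 0.19, 0.23 and 1.35 in RooKD, and RooKD replicate 3 was the highest of the 6. Cytosolic ribosomal proteins had 58 of 84 members above 0 and a median of 0.05, with 0.07 without both libraries. Nuclear subunits of oxidative phosphorylation had 46 of 68 above 0 and a median of 0.09, which was -0.02 without both. Flight muscle sarcomere genes had 24 of 30 above 0 and a median of 0.10, with 0.05 without both. None of the members of these 5 lists was called by either tool on all libraries. Over all features, edgeR called 0.0943% and DESeq2 0.702%. At such shares lists of this size can hold no call, so its absence does not set them apart.

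The small RNA pathways had no call either, beside 0.0943% by edgeR and 0.702% by DESeq2 over all features. In lists this short, that does not set them apart. Of 32 piRNA pathway genes, 25 lay above 0 with a median of 0.09, which was 0.19 without both libraries. Of 16 genes of the siRNA and microRNA machinery 8 did, with a median of 0.01 that was -0.01 without both. The piRNA medians of the libraries were 0.17, -0.13 and 0.69 in 412KD, against 0.70, -0.18 and -0.18 in RooKD, where 412KD replicate 3 and RooKD replicate 1, the libraries with high germline markers, were the highest of their groups. The 36 ovary and germline genes had medians of 1.27, 0.07 and 4.07 in 412KD, against 4.11, -0.26 and -0.16 in RooKD, in the same order. Their part in the piRNA values was not tested.

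**Figure D5:**
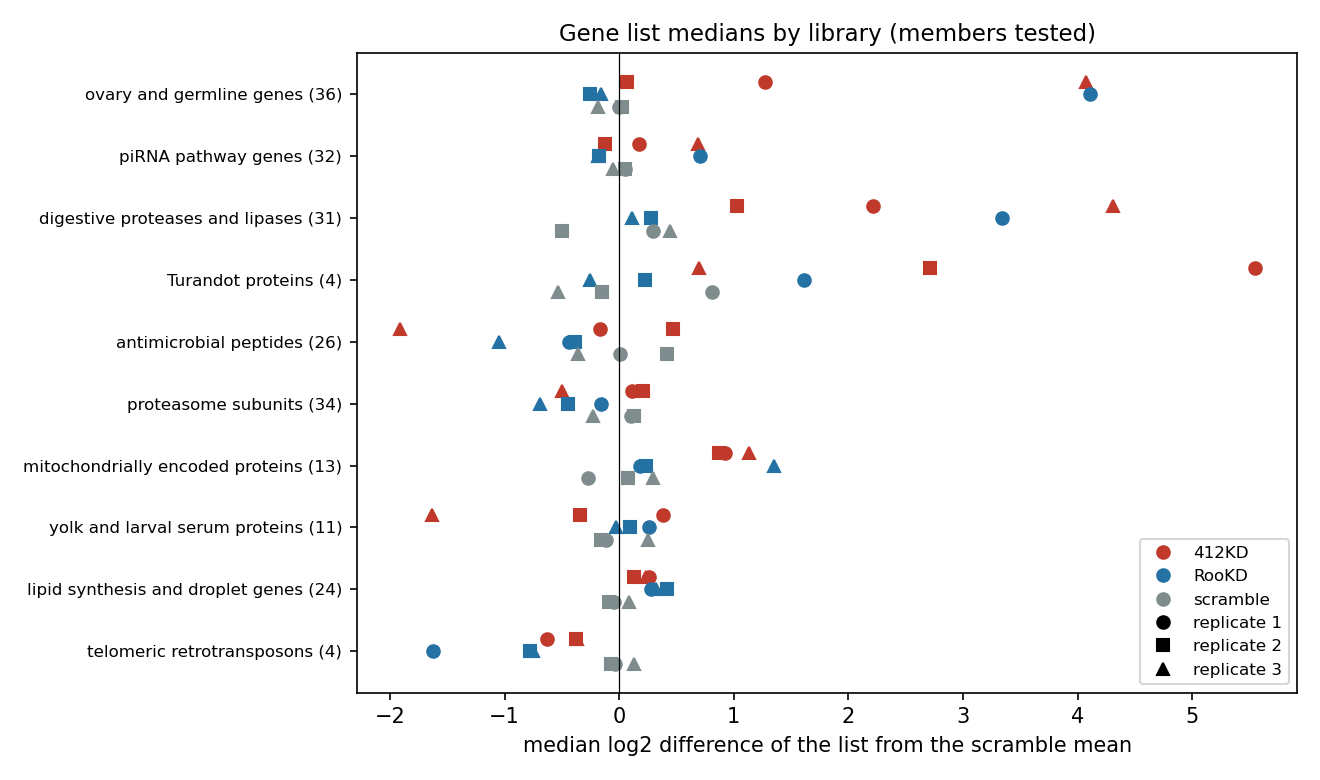
Median log2 difference from the scramble mean of 10 gene lists, by library (number of members tested in brackets; red 412KD, blue RooKD, grey scramble; circle, square and triangle for replicates 1, 2 and 3). Ovary and germline genes are high in 412KD replicate 3 and RooKD replicate 1, and the Turandot proteins are highest in 412KD replicate 1.

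Several genes that were not called on all libraries were called by edgeR when both of those libraries were left out. The amidase gene PGRP-SC1a, whose product cuts bacterial peptidoglycan, had 80.5, 95.6 and 93.0 normalized counts in 412KD, against 207, 1.12 and 1.30 in RooKD, with 4.33, 2.04 and 3.87 in scramble. RooKD replicate 1 was above all 3 of 412KD, and the fold change of 0.35 ± 1.37 (edgeR adjusted p = 0.997) became 6.04 without both (edgeR adjusted p = 0.00252). The methuselah-like gene mthl8 had 253, 275 and 224 normalized counts in 412KD, against 271, 0 and 0 in RooKD, with 21.6, 16.3 and 5.8 in scramble. Again RooKD replicate 1 alone stood with 412KD, and edgeR called the difference without both (adjusted p = 0.00308). For Lcp1, a larval cuticle protein, and Ugt37a1, a UDP-glycosyltransferase, the sign turned, with fold changes of -0.02 ± 1.17 and -0.08 ± 0.88 on all libraries and 3.64 and 2.09 without both (edgeR adjusted p = 0.0234 and 0.0198). Cyp9h1 had 2728, 2837 and 825 normalized counts in 412KD, against 1089, 718 and 676 in RooKD, with 1050.0, 1116 and 904 in scramble, where 412KD replicate 3 was the low one, and its fold change of 1.36 ± 0.42 became 1.98 without both (edgeR adjusted p = 0.000506).

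The genes that mark the transgenes and the background had no call. The eye colour gene w had 858.5, 798 and 779 normalized counts in 412KD, against 684, 909 and 647 in RooKD, with 870, 870.5 and 914 in scramble. These ranges overlapped, and the fold change was 0.12 ± 0.14 (edgeR adjusted p = 0.997). The gene w lies in kirre on the opposite strand, so its reads may include those of kirre. The eye pigment gene v had 1061, 1127 and 758 normalized counts in 412KD, against 1269, 1904 and 1474 in RooKD, with 585, 704 and 853 in scramble. Its hairpin groups did not overlap, and the difference of -0.66 ± 0.21 did not pass the test (edgeR adjusted p = 0.605). Act5C, whose promoter drives the hairpins, had 47280, 39490 and 39780 normalized counts in 412KD, against 54670, 46240 and 55280 in RooKD, with 56320, 50930 and 45340 in scramble, a difference of -0.30 ± 0.15 (edgeR adjusted p = 0.878).

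By position, the 10 edgeR calls fell as 3 on X, 3 on 2L, 2 on 2R, 1 on 3L and 1 on 3R, and none on 4. Of all features tested, 16.2% lay on X, 17.7% on 2L, 20.5% on 2R, 19.1% on 3L, 24.7% on 3R and 0.859% on 4. The 3 calls on X are the neighbours Reepl1, Kmn1 and CG11699. So few calls do not show that any arm was rich or poor in them. None of the 10 lay within 20 kb of any of the 44 insertions of 412 or the 144 insertions of roo in the reference annotation. Of all 10512 genes tested, 1.53% lay so near to 412 and 3.56% so near to roo, and of the 69 genes called by DESeq2, 2 did for each element, or 2.9%. LysP and CG43218 were those near 412, and IM23 and plum those near roo. Insertions particular to these flies were not analysed here.

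Presence and absence of reads separated the groups in few features. With at least 10 reads in all 3 libraries of one hairpin and none in the other, 3 features were found, and all 3 were present in 412KD and absent in RooKD. They were Reepl1, CG14317 and lncRNA:CR45644. CG14317 had 15, 11 and 33 reads in 412KD, against 0 in each RooKD library, with 3, 2 and 10 reads in scramble, at least 4.79-fold higher in 412KD against the floor. At a minimum of 5 reads the count was 5, with lncRNA:CR44747 present in 412KD and CG31730 present in RooKD. CG31730 had 5 reads in each of the 3 RooKD libraries and 0 in each 412KD library, with 4, 2 and 3 in scramble. With so few reads its absence from 412KD was at the limit of the depth.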

How the data were processed

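RNA from 9 libraries of pooled thoraces was aligned with HISAT2 to build dm6 and compared with DESeq2 by the authors, per the submitters' processing notes, which give no versions. For the counting tool, the annotation release, the strand setting and the treatment of multiply mapped reads, no statement was found in the sources used. Each hairpin has a table by the authors, with the scramble libraries beside it, that holds raw counts per feature, per the file headers. The deposited normalized signal equals the count over a library's size factor, judged by the values, and the deposited FPKM values, log2 fold changes and p-values are the authors' own, per the file headers. Only the counts were used here.

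The tables hold 14166 and 14078 features and share 13765, with identical scramble counts. The 6 low-complexity features, with 0.0019% to 0.244% of the reads, were left out. By identifier, 5 symbols held as dates were restored. The reference annotation held 13507 of 13597 FlyBase genes, and start and end were equal for 13428.

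Counts of all 9 libraries were fitted together with edgeR 4.0.16 in R 4.3.3 (TMM, filterByExpr, robust quasi-likelihood F test, Benjamini-Hochberg adjusted p of 0.05), and the contrast was 412KD minus RooKD. The standard error is the fold change over the square root of F. Both contrasts with scramble come from the same fit and share the scramble libraries. DESeq2 1.42.0 was run as the other tool, and where it gave no adjusted p none was filled in. Element CPM, from the counts, was compared by an exact permutation test (SciPy 1.17.1), with an exact binomial 95% interval for the ratio of reads. The floor for a group with no read was 3 reads per library. The fit was checked on simulated counts.

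The rule for named genes took, per direction, up to 15 features called by edgeR, with a mean of at least 50 normalized counts in the higher group and no overlap between the hairpin libraries, filled from the calls of DESeq2 and then of edgeR without 412KD replicate 3 and RooKD replicate 1, plus up to 4 called members of each list, neighbours called in the same direction, the targeted elements and transgene markers. The groups, members, lists and rules were chosen with earlier results of these data known. The lectin, telomere and repeat lists and some edits to other lists were made after the values had been seen. Alternatives were other size factors, no count filter, a fit of the hairpin libraries only, a replicate block, single libraries left out, the internal part of each element alone, and both libraries with the most germline transcripts left out, where DESeq2 was added after seeing the data.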

Additional observations from a re-analysis of the deposited data

Results flagged for a closer look

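CG10919 (chr3R:7758122-7759677) stands in the 412 table alone and entered no comparison. It had 61, 125 and 6 reads in 412KD, 192 in all, and 1 read in the 3 scramble libraries together, and is flagged because reads above the control level lie outside the features compared. A count for RooKD was not analysed here.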

How the results depend on the processing

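The count of 10 features called was 10 with DESeq2-type size factors and 11 with no count filter, 74 by DESeq2, 4 with the 6 hairpin libraries alone, 70 without 412KD replicate 3 and RooKD replicate 1, and 436 by DESeq2 without both. Leaving out a single library gave 2 to 22, with 22 without 412KD replicate 3 and 2 without 412KD replicate 2, RooKD replicate 2 or RooKD replicate 3. The replicate block gave 4. Deviations from the group mean had r = 0.0015, 0.39 and -0.21 between the hairpin libraries numbered 1, 2 and 3. Pairs of unlike number ranged from -0.50 to 0.37. With 3 libraries a group this check cannot decide whether the numbers pair the libraries. List members called, 2 in all, were 22 by DESeq2, 1 with the hairpin libraries alone, 1 with the replicate block, 20 without both, 108 by DESeq2 without both and 0 to 4 with a library left out. The ratio of roo reads ranged from 0.839 to 1.023 with a library left out, above 1 without 412KD replicate 3 (1.011) or RooKD replicate 3 (1.023), and that of 412 from 1.56 to 1.99, and it was 1.39 for the internal part of 412 alone. The features present in one hairpin alone, 3 at a minimum of 10 reads, were 5 at a minimum of 5. Signs turned, without both libraries, for Lcp1 (3.638 by edgeR, 3.667 by DESeq2) and Ugt37a1 (2.088 and 2.092), and the cause was not tested. CR18217 and Reepl1 were called in all 9 fits with a library left out, and Kmn1 in 4, CG11893 in 5, CG12934 and lectin-24Db in 3, CG3117 and CG11699 in 1 and Cyp4p1 and slmo in none. No fitted change of sign occurred among the 10 calls under any alternative. With 3 libraries a group, an exact test of a single value cannot go below 0.1.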

Other observations

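Features counted for a single hairpin, 401 for 412 and 313 for roo, could not be compared between hairpins. None of them had 10 or more reads in all 3 hairpin libraries of its group. Apart from CG10919, the features with the most reads were each held by a single library. CG32379 had 0, 0 and 35 reads in 412KD and 0 in scramble. CG7213 had 49, 0 and 0 reads in RooKD and 1 in scramble, and lncRNA:CR45693 had 30, 1 and 0 reads in RooKD and 0 in scramble.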
